A study of Mus musculus with 22 samples.

Results

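Dual-function loops are chromatin loops with a site co-occupied by CTCF and cohesin and a cis-regulatory element (CRE, a promoter or enhancer) at both anchors. Of the 3370 such loops in the deposited list of 16370 loops, 530 (15.7%, 95% Wilson interval 14.5 to 17.0%) were stronger after CTCF removal in early-G1 and again in mid-G1, and they are described here. They were chosen by these measured values: the +auxin strength had to exceed the −auxin strength at both stages, so both changes are given as a description. Among all 16370 loops, 17.2% met the same criterion. The number depends on the criterion: it was 1039 when each stage was centred on the loops outside the 3 named categories, and 315 when a strength of 1.5 was required in mid-G1. The other 2840 dual-function loops serve as the comparison.

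The cells were G1E-ER4, a mouse erythroblast line that lacks endogenous GATA1 and was not induced here. In the sub-line used, CTCF carries an auxin-inducible degron and mCherry. −auxin and +auxin cells shared this tagged CTCF and a retroviral OsTiR, the plant F-box protein that lets auxin destroy the tagged protein. Cells were arrested in prometaphase with 200 ng/ml nocodazole. Auxin, where given, was added during the arrest, hours before its end, and kept in the medium after release. Cells were sorted by DNA content and mCherry without release (prometaphase) or following a release of 30 min (ana/telophase), 60 min (early-G1) or 120 min (mid-G1). Prometaphase cells were also selected for a mitosis-specific antigen and ana/telophase cells for reduced GFP. Ana/telophase cells carried a variant of the OsTiR construct with a mitotic degron, and their release time reads 25 min in one protocol field. In situ Hi-C, a genome-wide count of ligations between DNA fragments close to each other in the nucleus, was done on 18 libraries of these 8 conditions, with 3 per treatment in mid-G1 and 2 elsewhere. The strength of a loop is the ratio of observed to locally expected contacts at its summit, 1 meaning no enrichment, and was deposited once per condition from merged replicates. Maps of single replicates were not analysed here, so the strengths carry no replicate error, no test between treatments was made, and the contacts behind a single loop are not known from the values used.

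Cohesin is thought to extrude chromatin until it meets CTCF bound in convergent orientation, which leaves a loop with CTCF at its base. Such structural loops can bring regulatory elements inside them together, and can keep apart elements that lie on different sides of a loop anchor. Promoters and enhancers also contact each other without CTCF. A dual-function loop holds both kinds of element, and its contact may rest on either.

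The CTCF core consensus, which is directional, was searched on both strands of mm9. Within the summit bins of the loops named further on, 6 matches were found in 5 loops. They are printed to show which way the core pointed at these anchors, on the plus strand, with 20 bases on either side and the 13 letters of the core in capitals. A core that reads CCA from the left lies on the plus strand and points right, and one that ends in TGG lies on the minus strand and points left. 
Rae1 anchor, chr2:172821913-172821965: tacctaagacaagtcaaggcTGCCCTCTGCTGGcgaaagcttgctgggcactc
Hsp90aa1 anchor, chr12:111941297-111941349: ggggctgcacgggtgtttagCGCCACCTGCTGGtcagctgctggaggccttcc
Fam136a anchor, chr6:86314567-86314619: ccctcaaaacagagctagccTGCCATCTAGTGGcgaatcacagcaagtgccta
Gapdh anchor, chr6:125112149-125112201: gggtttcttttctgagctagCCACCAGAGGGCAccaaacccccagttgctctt
Ccnd2 anchor, chr6:127097868-127097920: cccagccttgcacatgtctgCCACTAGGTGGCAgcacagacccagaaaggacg
Isg20l2 anchor, chr3:87739802-87739854: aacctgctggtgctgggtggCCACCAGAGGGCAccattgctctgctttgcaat
The Rae1, Hsp90aa1 and Fam136a matches lay at downstream anchors, outside any protein-coding gene, and pointed into their loops. The Gapdh and Isg20l2 matches lay in introns of these genes at upstream anchors and pointed into their loops as well. The Ccnd2 match, in an intron at the downstream anchor of the loop from Gapdh to Ccnd2, pointed out of the loop, so that the cores of this loop ran in the same direction and did not face each other.

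In −auxin cells the 530 loops were weak in G1, and in +auxin cells they rose up to early-G1. Their median −auxin strength began at 1.11 in prometaphase, reached 1.36 in ana/telophase and 1.39 in early-G1, and fell back to 1.26 in mid-G1, with SDs of 0.0760 to 0.125 between the medians of 19 chromosomes. With auxin the medians were 1.13, 1.505, 1.75 and 1.604 (SD 0.0902 to 0.174). The other dual-function loops without auxin rose to 2.02 in early-G1 and then 2.06, and were at 1.44 and 1.42 in +auxin cells. Thus the members ended higher with auxin than the other dual-function loops did, and lower without it. The median log2 change, log2(+auxin / −auxin), was 0.28 (quartiles 0.14 and 0.49) in early-G1 and 0.30 (0.15 and 0.49) in mid-G1 for the members, against −0.48 and −0.55 for the others. These later changes chose the members and have no independent weight.

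**Figure D1:**
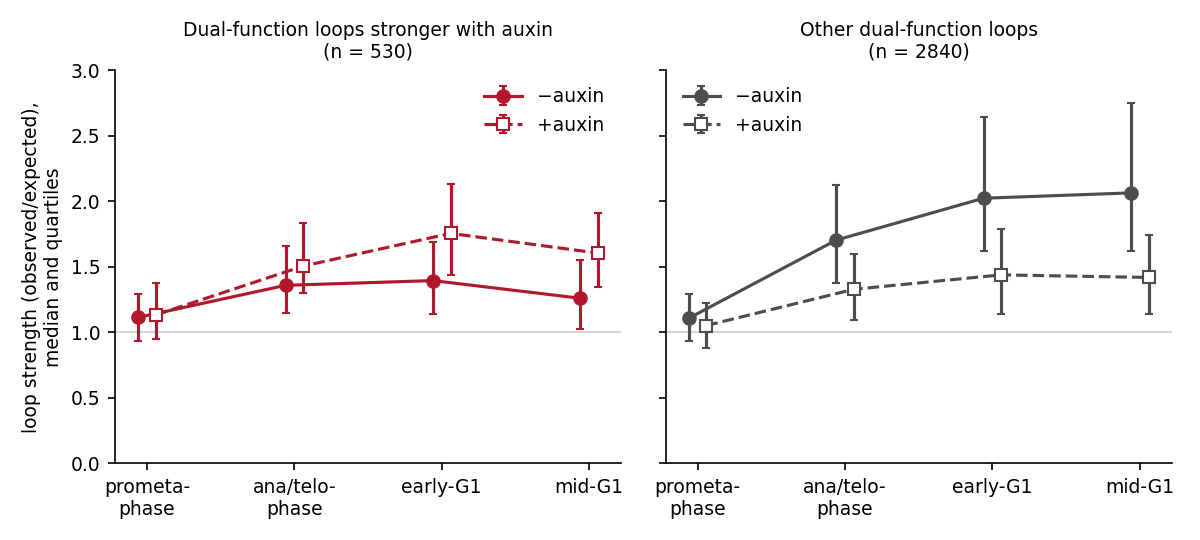
Loop strength (ratio of observed to locally expected contacts) in the 4 stages for the 530 dual-function loops stronger with auxin in early-G1 and mid-G1 (left) and the other 2840 (right); points are medians over loops, bars the quartiles, solid lines −auxin and broken lines +auxin, and the grey line marks a ratio of 1. The lines of the members part after prometaphase with +auxin on top, those of the others with −auxin on top.

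The gain was small for many members. The smaller of the 2 changes was under 0.1 for 142 of the 530, and both were under 0.1 for 23. In mid-G1 +auxin cells 315 members reached a strength of 1.5 or more. The authors' calls, made on the same maps, split the members unevenly: 333 (62.8%, 95% Wilson interval 58.6 to 66.8%) were detected in +auxin cells only, 138 under either treatment and 59 just in −auxin cells. Among all loops 14.6% were detected in +auxin cells only, and among the other dual-function loops 4.30% (122 of 2840).

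The criterion did not use the ana/telophase strengths, and there too the members were stronger in +auxin cells. The ana/telophase maps did help to list the loops, since a loop was listed when called in any map, and 148 members were first detected with auxin in ana/telophase. The values are therefore not independent of the listing. The median log2 change of the members was 0.17 (SD 0.08 over 19 chromosomes) against −0.33 (SD 0.05 over 20 chromosomes) for the other dual-function loops. In all, 404 of 530 members (76.2%, 95% Wilson interval 72.4 to 79.7%) were stronger with auxin in ana/telophase, compared with 403 of 2840 others (14.2%, 13.0 to 15.5%) and 26.4% of all loops. The change also varied with the calls: its median was 0.21 for members detected in +auxin cells only, 0.13 for those detected under both treatments and 0.07 for those detected in −auxin cells only, compared with 0.05, −0.24 and −0.37 for the others of the same classes. With the prometaphase change subtracted from the changes used to choose the loops, 752 loops qualified, and their median ana/telophase change was 0.032, with 54.3% stronger. On each of the 19 chromosomes with at least 10 members the median change of the members exceeded that of the others, and it was above 0 on 18. The share rose with the size of the later gain: 57.0% of the 142 members whose smaller change was under 0.1 were stronger in ana/telophase, 68.3% of the 120 from 0.1 to 0.2, 86.3% of the 146 from 0.2 to 0.4 and 94.3% of the 122 above that. Without auxin the ana/telophase strength of the members was itself below that of the others, 1.36 (quartiles 1.15 and 1.66) against 1.70 (1.37 and 2.12).

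A small difference was present before mitotic exit. In prometaphase the median log2 change was 0.05 (SD 0.11) for the members and −0.07 (SD 0.06) for the others, and 301 members (56.8%, 95% Wilson interval 52.5 to 60.9%) were stronger with auxin, compared with 41.9% (40.1 to 43.8%) of the others and 45.6% of all loops. The prometaphase median of the members was smaller than its SD over chromosomes. It did not grow steadily with the later gain, at 0.04, 0.10, 0.05 and 0.03 from the members with the smallest gain to those with the largest. Without auxin both groups had the same prometaphase strength, 1.11. A prometaphase strength of at least 1.5 in both treatments was found in 34 members (6.42%, 4.63 to 8.83%) and in 53 other dual-function loops (1.87%, 1.43 to 2.43%).

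**Figure D2:**
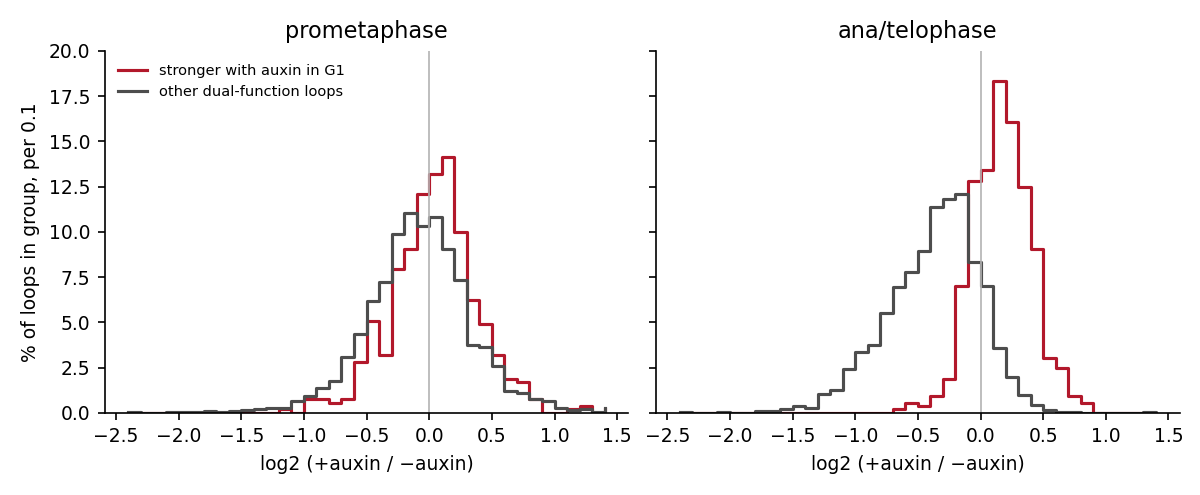
Distribution of the log2 change with auxin in prometaphase (left) and ana/telophase (right), as the percentage of loops of each group per step of 0.1, for the 530 loops stronger with auxin in G1 (red) and the other 2840 dual-function loops (grey). The groups overlap widely in prometaphase, and in ana/telophase their medians, 0.17 and −0.33, lie on different sides of 0.

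The course of the loops after mitosis differed between both groups in −auxin cells more than in +auxin cells. From prometaphase to ana/telophase, whose strengths the criterion did not use although calls on these maps helped to list the loops, the members rose by a median of 0.31 on the log2 scale without auxin (SD 0.17) and by 0.42 with auxin (SD 0.12). The other dual-function loops rose by 0.62 (SD 0.05) without and by 0.35 (SD 0.06) with auxin. From ana/telophase to mid-G1 the members fell by 0.12 without auxin (SD 0.07) and rose by 0.07 with auxin (SD 0.05), and the others rose by 0.30 and 0.09. The highest post-mitotic −auxin strength lay in ana/telophase for 223 members (42.1%, 95% Wilson interval 37.9 to 46.3%) and in mid-G1 for 74 (14.0%), compared with 4.79% and 57.4% of the others. With auxin it lay in early-G1 for 334 members (63.0%) and 1141 others (40.2%), and in mid-G1 for 21.5% of members and 37.4% of others. Values of early-G1 and mid-G1 entered the choice of the loops, and a low −auxin value there favoured it.

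The members were not a class of one size. Their median size was 210 kb (quartiles 100 and 400 kb, range 70 to 1975 kb), and that of the others 190 kb (110 and 380 kb). The difference of 20 kb is below the SD between chromosome medians, 58.4 kb and 38.3 kb, and its direction turned among loops with 10 kb summits, at 150 kb for members and 170 kb for others. Members made up 17.8% of the dual-function loops of 70 to 100 kb, 12.5% of those of 110 to 150 kb, 11.5% of those of 160 to 200 kb, 17.9% of those of 210 to 300 kb, 16.0% of those of 310 to 500 kb and 16.8% of those above 500 kb. The lowest of these shares fell in the middle of the size range. A summit called in bins of 25 kb was more frequent in the members (142 of 530, 26.8%) than in the others (15.1%).

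The members were crossed by structural loops more often than the other dual-function loops. A structural loop crosses a loop here when 1 of its anchor midpoints lies inside and the other outside. Crossed members numbered 350 (66.0%, 95% Wilson interval 61.9 to 69.9%), compared with 1113 of the other dual-function loops (39.2%, 37.4 to 41.0%, and 39.2% after weighting to the sizes of the members). The share was higher in the members in each of the 6 size bins: 47.5% against 18.6% at 70 to 100 kb, 67.1% against 30.1% at 110 to 150 kb, 76.6% against 39.9% at 160 to 200 kb, 72.2% against 43.8% at 210 to 300 kb, 75.9% against 52.0% at 310 to 500 kb and 72.9% against 60.6% above 500 kb. It was also higher on all 19 chromosomes with at least 10 members. Lying inside a structural loop, with both anchors within it, showed the opposite: 91 members (17.2%, 14.2 to 20.6%) against 982 others (34.6%, 32.9 to 36.3%), and lower in the members on 16 of the 19 chromosomes. In loops above 500 kb the shares inside were 5.21% and 7.97% with overlapping intervals.

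**Figure D3:**
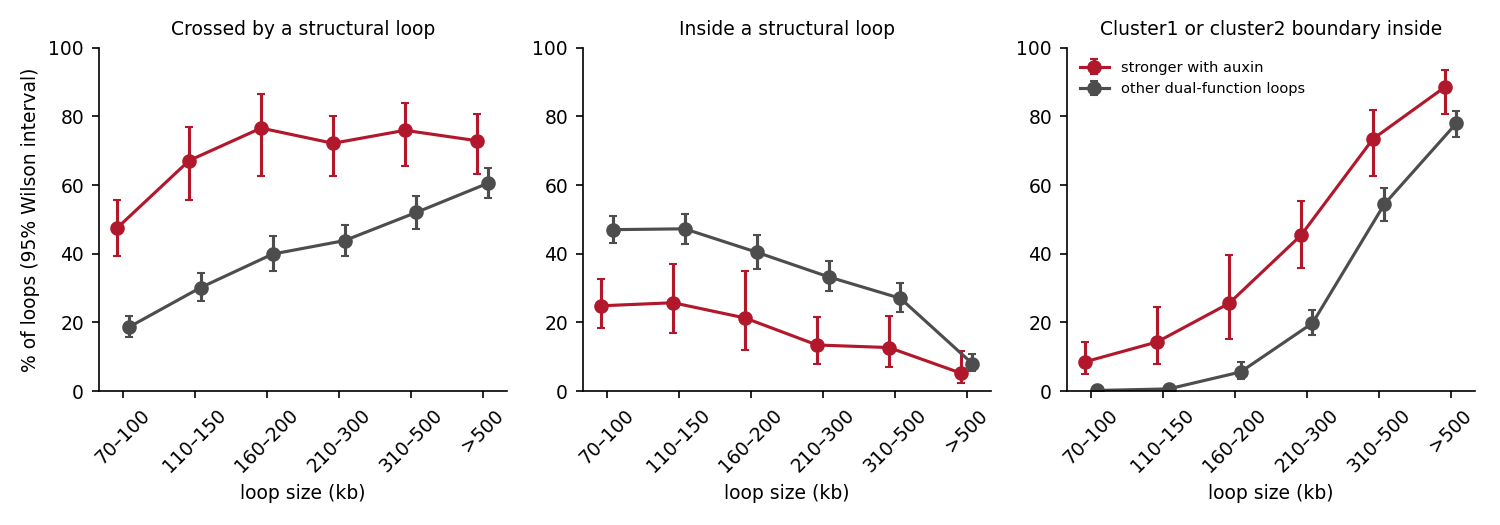
Percentage of loops crossed by a structural loop (left), inside a structural loop (middle) and with a cluster1 or cluster2 boundary inside (right) by loop size in kb, for the 530 members (red) and the other 2840 dual-function loops (grey); bars are 95% Wilson intervals. Crossing and boundaries inside were more frequent in the members in each of the 6 bins, and lying inside less frequent.

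The share of members also differed with the position of a dual-function loop. Of the loops crossed but not enclosed, 281 of 1034 were members (27.2%, 95% Wilson interval 24.6 to 30.0%), of those both crossed and enclosed 69 of 429 (16.1%, 12.9 to 19.9%), of those with neither 158 of 1263 (12.5%, 10.8 to 14.4%), and of those enclosed but not crossed 22 of 644 (3.42%, 2.27 to 5.12%). The median mid-G1 log2 change over all dual-function loops of these classes was −0.22, −0.45, −0.51 and −0.60. Members rose from 9.44% of the loops with no crossing loop to 17.7% with 1, 27.2% with 2, 29.3% with 3 or 4 and 46.5% (36.3 to 57.0%) of the 86 with 5 or more. Loops with more crossings were also longer, with medians of 150 kb at 0 and 498 kb at 5 or more. The ana/telophase change of the members did not rise with this number. Its median was 0.16 without a crossing loop, 0.20 with 1, 0.18 with 2, 0.15 with 3 or 4 and 0.12 with 5 or more, falling at each step among crossed members.

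The structural loops that crossed the members lost strength with auxin as structural loops in general did. In all, 603 distinct structural loops crossed at least 1 member. Their median −auxin strength over the 4 stages was 1.05, 1.71, 2.08 and 2.26. With auxin the medians were 1.003, 1.17, 1.23 and 1.26, below those without auxin at each stage. Of the 603, 588 (97.5%, 95% Wilson interval 95.9 to 98.5%) were weaker with auxin in mid-G1, compared with 96.5% of the 1249 that crossed other dual-function loops and 97.3% of all 4837 structural loops. These shares had overlapping intervals. Where exactly 1 structural loop crossed, its inner anchor lay at a median of 70 kb from the straddled anchor in 131 members (quartiles 40 and 132.5 kb) and at 120 kb in 610 others (60 and 192.5 kb). Crossed members had a median of 2 crossing loops and crossed others 1, and over all crossed loops the nearest inner anchor lay at 60 kb and 102.5 kb. These distances cannot exceed the size of the loop and were not matched for it. Of the 350 crossed members 67 were of 70 to 100 kb, compared with 121 of the 1113 crossed others. The part of loop size in the shorter distances was not tested.

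Boundaries between contact domains that weakened with auxin lay inside the members more often. The authors grouped the boundaries into clusters by their ΔIS in the post-mitotic maps of both treatments. ΔIS is the difference in insulation score between a boundary and its surroundings. The changes of ΔIS with auxin given here thus describe the clusters and have no independent weight. The 70 cluster1 boundaries inside members had a median mid-G1 ΔIS of 0.821 without and 0.195 with auxin. For the 182 cluster2 boundaries the medians were 1.05 and 0.599. At least 1 cluster1 or cluster2 boundary, 20 kb or more from both anchors, lay inside 221 members (41.7%, 95% Wilson interval 37.6 to 45.9%). The same held for 710 other dual-function loops (25.0%, 23.4 to 26.6%, or 26.5% at the sizes of the members). In loops of 70 to 100 kb the numbers were 12 of 141 and 1 of 651. Cluster3 boundaries, with median mid-G1 ΔIS of 0.683 without and 0.674 with auxin, differed less, with 20.6% (17.3 to 24.2%) of members and 15.7% (14.4 to 17.1%) of others holding one. Cluster4 boundaries, which were stronger with auxin at 0.360 against 0.218, lay inside 6.60% and 5.42%.

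At their own anchors the members had fewer boundaries of cluster1 and cluster2 and shared anchors with inward structural loops less often. Only 14 members had a cluster1 boundary within 15 kb of an anchor (2.64%, 95% Wilson interval 1.58 to 4.38%), compared with 225 others (7.92%, 6.99 to 8.97%). Cluster2 boundaries lay at an anchor of 18.5% (15.4 to 22.0%) of members and 25.9% (24.3 to 27.5%) of others. Cluster3 boundaries at an anchor went the other way, with 14.2% (11.4 to 17.4%) of members and 10.7% (9.62 to 11.9%) of others, and cluster4 boundaries were at 1.89% and 1.02%, with overlapping intervals. An anchor shared within 15 kb with a structural loop that ran inwards, over the same side as the loop itself, was found in 133 members (25.1%, 21.6 to 29.0%) and in 1396 others (49.2%, 47.3 to 51.0%). An anchor shared with a structural loop that ran outwards, away from the loop, was about as frequent in both, at 27.5% (23.9 to 31.5%) and 24.8% (23.3 to 26.4%). The inward share was lower in the members in all 6 size bins, for example 15.6% against 35.2% at 70 to 100 kb.

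The direction of the CTCF core differed as well. A core match is frequent at these anchors, with 12.9% of the 10 kb summit bins of members and 21.9% of those of other dual-function loops against 3.52% of all 10 kb bins of the genome. A match in a summit bin of at least 1 anchor was found in 166 members (31.3%, 95% Wilson interval 27.5 to 35.4%) and 1175 others (41.4%, 39.6 to 43.2%). Of the 195 matches at anchors of members, 110 pointed into the loop (56.4%, 49.4 to 63.2%), compared with 1141 of 1487 in the others (76.7%, 74.5 to 78.8%) and 81.4% of 3021 at structural loops that did not meet the criterion. CRE loops that met it, with 50.8% of 260 matches (44.7 to 56.8%), had an interval that spanned 50%, as that of the members did. In windows of 30 kb, those in which CTCF peaks had been assigned to anchors, 212 of 429 matches at members pointed inwards (49.4%, 44.7 to 54.1%), compared with 68.7% of 2757 in the others. Among the 68 members with matches in both windows, a convergent pair was present in 18 (26.5%, 17.4 to 38.0%) and a divergent pair in 27 (39.7%, 28.9 to 51.6%), whereas 245 of 454 others had a convergent (54.0%) and 64 a divergent pair (14.1%). Loops whose matches all pointed outwards were members in 69 of 284 cases (24.3%, 19.7 to 29.6%) and loops whose matches all pointed inwards in 86 of 942 (9.13%, 7.45 to 11.1%). A match is a sequence feature and not measured binding.

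**Figure D4:**
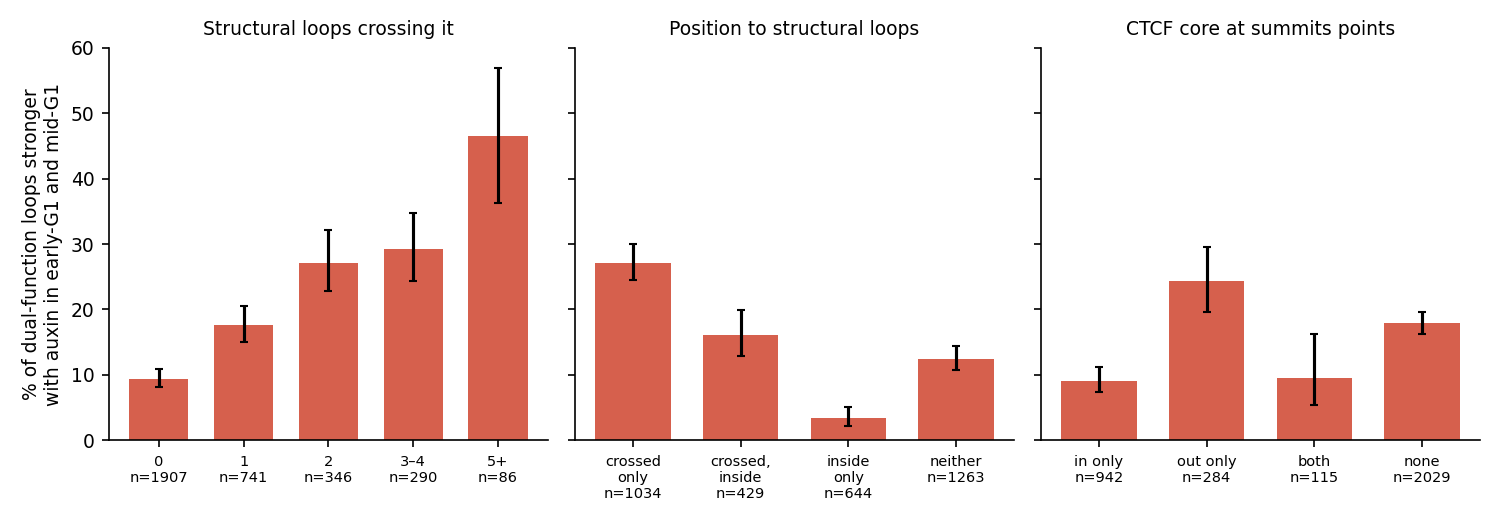
Percentage of dual-function loops that were stronger with auxin in early-G1 and mid-G1, by the number of structural loops crossing them (left), by their position to structural loops (middle) and by the direction of CTCF core matches in their summit bins (right, in and out meaning into and out of the loop); bars are shares with 95% Wilson intervals, and n is the number of dual-function loops. The share runs from 9.44% without a crossing loop to 46.5% with 5 or more, and is lowest, at 3.42%, for loops only enclosed.

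Promoters were common at the anchors of the members. A start of a protein-coding transcript lay in both summit bins of 291 members (54.9%, 95% Wilson interval 50.6 to 59.1%) and of 770 others (27.1%, 25.5 to 28.8%), and in at least 1 in 90.9% and 67.8%. The wider 25 kb bins, more frequent among members, hold more starts, and among loops with 10 kb summits the shares with a start in both were 49.5% and 22.1%. Promoters and crossing were each linked to membership within the other: of the crossed loops with starts at both anchors 35.6% were members (192 of 539, 31.7 to 39.8%), of the crossed loops without them 17.1% (158 of 924), of the uncrossed loops with them 19.0% (99 of 522) and of the uncrossed loops without them 5.85% (81 of 1385).

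Each of the 6 members with the largest gain was crossed by at least 1 structural loop and was stronger with auxin in ana/telophase. Over all members the crossed share did not rise steadily with the gain. It was 64.1% of those whose smaller change was under 0.1, 60.8% from 0.1 to 0.2, 69.9% from 0.2 to 0.4 and 68.9% of the 122 above that. On chr17 a loop of 260 kb joined the start of Phf1, a Polycomb-associated protein, and of Cuta (27070001 to 27080000) with an exon of Lemd2, an inner nuclear membrane protein (27330001 to 27340000). Its −auxin strength was 1.23, 0.901, 0.795 and 0.653 from prometaphase to mid-G1, and its +auxin strength 1.17, 1.61, 1.85 and 1.90. At its summit the loop was thus below its local surroundings in G1 without auxin and above them with auxin, with a mid-G1 log2 change of 1.54. The structural loop that crossed it, between 27270001 to 27280000 and 27650001 to 27660000, measured 3.12 in mid-G1 −auxin cells and 0.936 in +auxin cells.

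On chr11 a loop of 170 kb joined Kdm6b, which encodes a histone H3K27 demethylase (69220001 to 69230000), with the shared promoter region of Trp53, the p53 tumour suppressor, and Wrap53 (69390001 to 69400000). Its −auxin values were 1.89, 2.05, 1.73 and 1.30 and its +auxin values 1.85, 2.59, 3.05 and 2.74. Both treatments began alike and parted from ana/telophase on. It was crossed by 4 structural loops, the strongest of which fell from 3.63 to 1.30 with auxin in mid-G1. On chr7 a loop of 410 kb joined Cic, the transcriptional repressor Capicua (26060001 to 26070000), with Tgfb1, the cytokine TGF-β1 (26470001 to 26480000). Its values were 1.89, 2.20, 2.09 and 1.29 without and 2.06, 2.76, 3.72 and 2.86 with auxin. The gain was largest in mid-G1, with a log2 change of 1.15.

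On chr8 a loop of 400 kb joined Tacc1 (26310001 to 26320000) with Whsc1l1, which encodes the H3K36 methyltransferase NSD3 (26710001 to 26720000). Without auxin it had 1.71, 2.05, 1.18 and 1.19, and with auxin 2.08, 2.72, 2.34 and 2.28. Without auxin it was lower in early-G1 and mid-G1, the values that chose it, than in ana/telophase. The structural loop crossing it ended 20 kb inside the Tacc1 anchor and had a mid-G1 strength of 9.09 in −auxin and 1.46 in +auxin cells. On chr15 a loop of 240 kb joined Hoxc6 (102830001 to 102840000) with Cbx5, which encodes the heterochromatin protein HP1α, and Hnrnpa1, a splicing regulator (103070001 to 103080000). It had 2.65, 1.98, 1.56 and 1.34 without and 2.85, 3.601, 2.81 and 2.39 with auxin. This contact was strong in prometaphase under both treatments, and in mid-G1 it was lower than in prometaphase under both.

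The sixth, on chr5, joined a bin without a protein-coding gene (137570001 to 137580000) over 160 kb to the starts of Ache, which encodes acetylcholinesterase, and Ufsp1 (137730001 to 137740000). It had 3.40, 3.97, 2.61 and 2.81 without and 3.25, 4.99, 5.98 and 5.60 with auxin. The strongest structural loop crossing it was unusual, with a prometaphase −auxin strength of 3.96 and mid-G1 values of 7.49 without and 6.30 with auxin, a smaller loss than at the other crossing loops named here so far. Its own prometaphase strength was high too, and the part of this in the result was not tested.

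**Figure D5:**
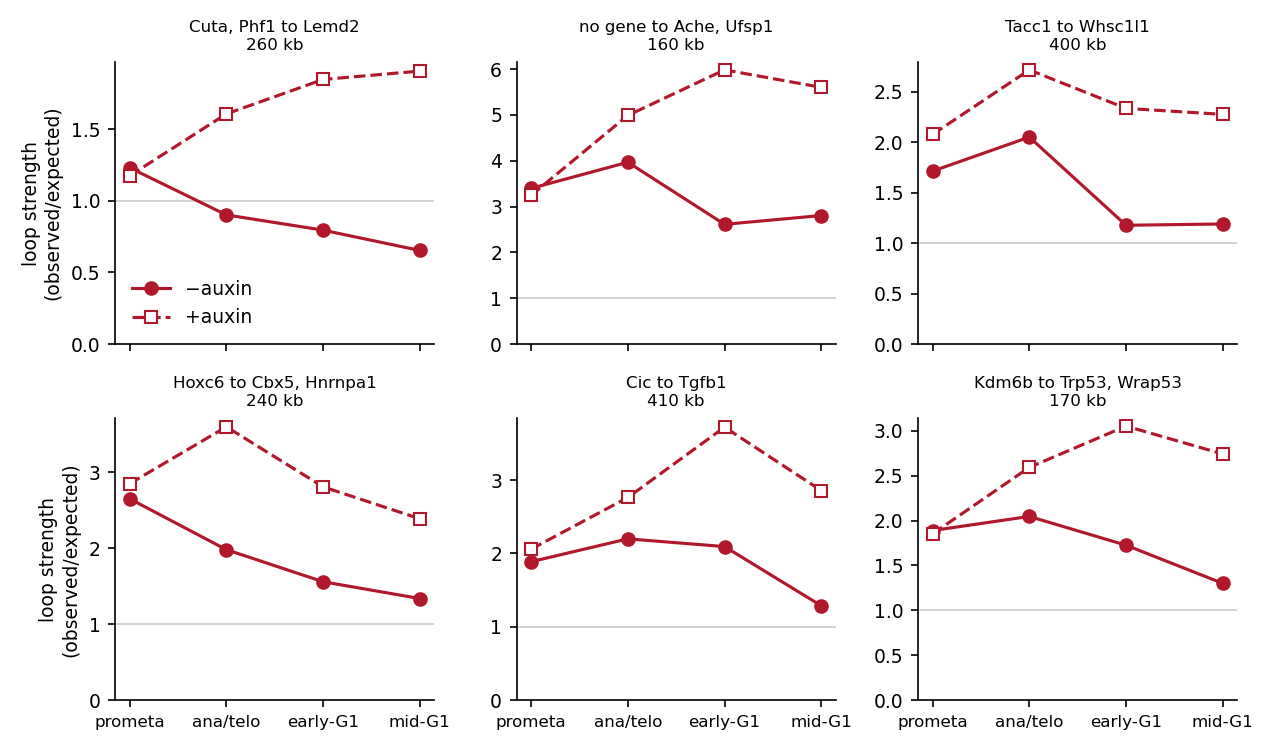
Loop strength (ratio of observed to locally expected contacts) in the 4 stages without (solid, filled) and with auxin (broken, open) for the 6 members with the largest gain, named by the genes at their anchors; each point is 1 merged map and the grey line marks a ratio of 1. In all 6 panels the +auxin line lies above the −auxin line from ana/telophase on, and in prometaphase 3 of the 6 lie above it, by at most 0.28 on the log2 scale.

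The members with the highest mean strength over all maps included the Ache loop and 3 with small gains, none of which was crossed by a structural loop. On chr5 a loop of 90 kb lay between the start of Eif2ak1, which encodes the haem-regulated eIF2α kinase HRI (144570001 to 144580000), and exons at the other end of the same gene and of Aimp2 (144660001 to 144670000). It had 5.01, 6.03, 4.05 and 4.63 without and 5.56, 6.28, 4.52 and 4.82 with auxin. Its mid-G1 change was 0.06, and it was stronger in prometaphase than in G1 under both treatments. On chr13 a loop of 1490 kb joined the starts of histone genes, Hist1h2ag, Hist1h2bj and Hist1h4i (22130001 to 22140000) with Hist1h2af, Hist1h3g and Hist1h4h (23620001 to 23630000). It had 1.19, 3.63, 4.57 and 3.96 without and 2.67, 4.73, 5.14 and 4.31 with auxin. Its largest difference, 1.16 on the log2 scale, lay in prometaphase. On chr8 a loop of 70 kb between an exon of Tmem38a (75100001 to 75110000) and the start of Nwd1 (75170001 to 75180000) had 2.50, 3.17, 3.74 and 3.76 without and 2.86, 3.502, 4.15 and 4.02 with auxin. Its +auxin values were higher at each stage by 0.10 to 0.19 on the log2 scale.

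Genes of 6 lists, on blood cells, the cell cycle, and CTCF and cohesin, lay at 41 members. Of these members, 32 were stronger with auxin in ana/telophase and 27 were crossed by a structural loop, near the shares of 76.2% and 66.0% over all members. Of the 17 erythroid transcription factor and cofactor genes with a start at any dual-function anchor, 11 (64.7%) had one at a member, among them Gata2, Klf1, Tal1, Runx1, Ldb1, Nfe2 and Zfpm1. The numbers were 6 of 8 for iron handling and the red cell membrane, 5 of 9 for blood cytokine signalling, 4 of 7 for CTCF and cohesin, 5 of 12 for the cell cycle and 2 of 9 for globins and haem synthesis. Over all protein-coding genes at dual-function anchors it was 883 of 2889 (30.6%). A gene could lie at several loops, and of the dual-function loops at listed genes 39.0% were members, compared with 20.0% (482 of 2407) of those with any protein-coding start at an anchor. The lists were chosen with earlier results of these data known, so these shares are not independent of the data.

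Among these, the members at Car2, Slc40a1 and Itga4 were strong in mid-G1 +auxin cells. The Car2 loop, on chr3, ran over 280 kb from an exon of E2f5 (14600001 to 14610000) to the start of Car2, which encodes an abundant red cell carbonic anhydrase (14880001 to 14890000). Its strength was 1.20, 1.73, 2.32 and 2.62 without and 1.44, 2.71, 2.91 and 3.29 with auxin. It formed in both treatments and was higher with auxin throughout, with 3 structural loops across it. The Slc40a1 loop, on chr1, joined the start of the iron exporter gene ferroportin (45980001 to 45990000) over 930 kb with that of Slc39a10, a zinc importer (46910001 to 46920000). It had 1.59, 1.53, 2.04 and 2.37 without and 1.12, 2.30, 3.49 and 2.85 with auxin. The order of the treatments was thus the opposite in prometaphase. The Itga4 loop of 380 kb, on chr2, ran from an exon of Ube2e3 (78710001 to 78720000) to the start of the integrin α4 gene (79090001 to 79100000) and had 1.19, 2.13, 2.48 and 1.86 without and 1.39, 2.84, 3.21 and 2.76 with auxin.

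Members at Tal1, Runx1 and Smc3 were weaker with auxin in ana/telophase and stronger later. The Tal1 loop, on chr4, joined a bin without a protein-coding gene (114330001 to 114340000) over 400 kb to the start of this erythroid master regulator (114730001 to 114740000). It had 0.960, 2.60, 2.06 and 2.11 without and 1.16, 1.94, 2.14 and 2.51 with auxin. The early-G1 change was 0.06. On chr16 a loop of 130 kb joined annotated starts (92690001 to 92700000 and 92820001 to 92830000) of Runx1, a haematopoietic transcription factor. Its values were 1.19, 2.03, 2.17 and 2.25 without and 1.19, 1.93, 2.31 and 2.37 with auxin. These pairs differed by less than 0.1 on the log2 scale at each stage, and 8 structural loops enclosed this loop. The 1 structural loop that crossed it was not weaker with auxin, at 1.89 without and 1.95 with auxin in mid-G1. The first of these starts also formed a loop of 450 kb with a bin without a protein-coding gene (93140001 to 93150000), which had 1.504, 2.71, 2.78 and 2.37 without and 0.914, 2.39, 2.96 and 2.39 with auxin. The Smc3 loop of 600 kb, on chr19, ran from an exon of Xpnpep1 (53070001 to 53080000) to the start of this cohesin subunit gene (53670001 to 53680000) and had 1.11, 2.72, 2.50 and 2.08 without and 1.63, 1.79, 2.65 and 2.38 with auxin.

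The loops with printed cores included Aurka to Rae1, which encode a mitotic kinase and a nuclear export factor with a role in the spindle. This loop of 630 kb on chr2 (172190001 to 172200000 and 172820001 to 172830000) was crossed by 6 structural loops. It had 1.46, 2.55, 2.12 and 2.32 without and 1.54, 2.76, 2.53 and 2.69 with auxin. The loop of 290 kb on chr6 from Add2, which encodes the red cell membrane protein β-adducin (86020001 to 86030000), to Fam136a (86310001 to 86320000) was crossed by none. It had 1.18, 1.74, 1.82 and 1.82 without and 1.22, 1.83, 2.45 and 2.19 with auxin, and a cluster1 boundary lay inside it. A loop of 1900 kb on chr12 joined the starts of Yy1, a zinc finger transcription factor (110025001 to 110050000), and Hsp90aa1, a chaperone (111925001 to 111950000). It had 1.26, 1.67, 2.101 and 1.89 without and 1.38, 1.81, 2.17 and 2.23 with auxin, with its largest gain in mid-G1. The longest member, 1975 kb from Gapdh (125100001 to 125125000), which encodes a glycolytic enzyme, to Ccnd2, which encodes cyclin D2 (127075001 to 127100000), on chr6, had 1.501, 1.86, 2.28 and 1.93 without and 1.13, 2.28, 2.45 and 2.24 with auxin. The member with the most crossings joined Isg20l2 and Rrnad1 to Mef2d, a MADS-box transcription factor, over 210 kb on chr3 (87730001 to 87740000 and 87940001 to 87950000). With 10 structural loops across it, it had 1.14, 1.24, 1.16 and 1.10 without and 1.15, 1.66, 1.88 and 1.47 with auxin. Without auxin its strength stayed near 1 at each stage.

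The criterion had no margin, and loops on either side of it had nearly equal values. Just inside lay a loop at Syvn1 on chr19 where the mid-G1 values were 1.105 and 1.106, a loop from Tesk2 to Plk3 on chr4 with an early-G1 change of 0.003 and a loop at Coasy and Vps25 on chr11 with a mid-G1 change of 0.003. Just outside lay a loop at Polr3e on chr7, with an early-G1 strength of 2.071 in both treatments, a loop from Fau to Ehd1 on chr19 with a mid-G1 change of −0.002, and a loop from Id1 to Bcl2l1 on chr2 with an early-G1 change of −0.003.

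Similar behaviour was more common among CRE loops, which have CREs at both anchors and CTCF with cohesin at 1 or none. The criterion was met by 1736 of 4642 CRE loops (37.4%, 95% Wilson interval 36.0 to 38.8%) and by 81 of 4837 structural loops (1.67%, 1.35 to 2.08%). The CRE loops that met it had the same median size as the members, 210 kb, and a median mid-G1 change of 0.29. They were stronger with auxin in ana/telophase in 74.6% (72.5 to 76.6%) of cases and crossed by structural loops in 62.8% (60.5 to 65.1%), with intervals overlapping those of the members in both. They lay inside a structural loop more often, at 26.4% (24.4 to 28.6%) against 17.2% (14.2 to 20.6%). Their prometaphase share stronger with auxin was 51.3% (48.9 to 53.6%). The 81 structural loops that met the criterion were stronger with auxin in ana/telophase in 67.9% (57.1 to 77.1%) of cases and crossed by other structural loops in 71.6% (61.0 to 80.3%), compared with 46.3% of the remaining structural loops. The members were spread over all 20 chromosomes, as 9.52% to 21.7% of the dual-function loops of each chromosome with at least 10 of them. They used 940 distinct anchor bins, of which 103 served more than 1 member, and 292 members shared an anchor bin with a dual-function loop that was not a member.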

How the data were processed

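In situ Hi-C of CTCF-AID G1E-ER4 cells was processed by the authors with HiC-Pro and Bowtie2 on mm9, and replicates were merged before loops were called with a modified HICCUPS in 10 and 25 kb bins. Strength, as deposited, is the mean over 9 pixels of the ratio of observed contacts to those expected from a surrounding donut. The deposited boundary strength ΔIS is a signal computed by the authors from insulation scores within 120 kb. Loop categories, detection stages and the clusters of boundaries were taken from the deposited labels. A loop was listed if called in at least 1 map, pixels found in over 6 of 8 maps were removed by the authors, and part of the pixels was filtered on prometaphase strength. The 4 triptolide libraries were not used.

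All coordinates fit the lengths of the NCBIM37 chromosomes, which are mm9. Protein-coding genes came from GENCODE vM1. Log2 changes carry no pseudocount. Loops were treated as lying on shared chromosomes and not as replicates of a treatment, and no test was run. Wilson intervals cover counting error only. Size weighting used 6 bins. The members and lists were chosen with earlier results of these data known. Named loops are the 6 members with the largest smaller change among those of at least 1.5 in mid-G1 +auxin cells, the 4 strongest, up to 10 with a listed gene by mid-G1 +auxin strength, the 3 nearest the criterion on each side, the longest and the most crossed. Alternatives changed the criterion, scaling, resolution, crossing, boundary and start definitions; leaving out loops of at least 1.5 in prometaphase was chosen after seeing the data. Geometry, criterion and motif search were tested on simulated data. Python 3.11.15, numpy 2.4.6 and pandas 2.3.3 were used.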

Additional observations from a re-analysis of the deposited data

Results flagged for a closer look

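For 126 members (23.8%) the change with auxin had opposite signs at different time points: they were weaker in ana/telophase and stronger in early-G1 and mid-G1. This difference was not tested, since each value comes from 1 merged map. The median log2 change of these loops was −0.09 in ana/telophase and 0.16 in mid-G1, and their smaller G1 change was 0.10, compared with 0.26 in the other 404 members. They were of a like size (205 and 210 kb) and crossed by structural loops in 69.0% of cases, compared with 65.1%.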

How the results depend on the processing

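Of 71 values for the members under alternatives, 50 stayed within the SD over chromosomes (medians), the Wilson interval (shares) or 1.5 times the reported number (counts of members), and the median ana/telophase change stayed above 0 in each. The number of members within that range ran from 388 to 752. With both changes at least 0.1, 83.2% of members were stronger in ana/telophase. Centring each stage on the loops outside the 3 categories, whose median change was −0.03, −0.17, −0.24 and −0.30, gave 1039 members, all 530 among them, of which 83.1% were stronger in ana/telophase, 58.6% crossed and 21.5% inside a structural loop. With strength required to reach 1.5 in mid-G1 under either treatment, 315 members were left and 46.0% held a cluster1 or cluster2 boundary. With 10 kb summits only, the median size was 150 kb (170 kb in the others, so that the order turned), 30.7% held such a boundary and 49.5% had starts at both anchors. Subtracting the prometaphase change gave 752 members, 371 of them shared, with a median ana/telophase log2 change of 0.032, 54.3% stronger in ana/telophase, 18.9% in prometaphase, 58.9% crossed, 23.4% inside and 47.1% with starts at both anchors, and the prometaphase share was then below that of the others (51.6%). The crossed share was 59.1% (others 28.2%) where crossing had to reach 20 kb, 49.6% (25.9%) with structural loops of at least 2 in mid-G1, and 90.2% (69.5%) with other dual-function loops counted. A boundary margin of 50 kb gave 31.9% (21.8%), and starts within 30 kb windows 78.5% (56.7%).

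No paired analysis was possible because the loop table used here holds values of merged maps, which also have no replicate to leave out; maps of single replicates were not analysed here. Changes have no replicate error, the contacts behind single loops are not known, and many gains are small. Loops share anchors and crossing loops, so the intervals are too narrow.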
